A study of Mus musculus with 6 samples.

Results

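The genes described here encode the aminoacyl-tRNA synthetases of MB49 cells, a mouse bladder cancer line, measured by poly-A RNA sequencing after CRISPR knockout of the Y chromosome. Members were protein-coding genes whose symbol is a single amino acid letter followed by "ars" or "ars2", together with Eprs, Ears2, Pars2, Farsa and Farsb. The rule found 37 of the 54532 genes in the table: 20 cytosolic enzymes, and 17 mitochondrial enzymes whose symbols end in 2. Y-Scr cells carried a non-targeting guide RNA and Y-KO cells carried the Y chromosome knockout, with 3 libraries each. Per the labels, Y-Scr cells were sorted for a red fluorescent reporter (tRFP) after transduction and grown from single cells. The growth text of the Y-KO samples describes the Y-Scr control only. All 6 libraries share batch 1 in the labels. The sources used here name neither the guide behind the knockout nor the number of clones in each group, so the knockout and differences between clones cannot be told apart. The labels do not say whether the libraries of a group came from separate cultures, so p-values measure only the spread between these libraries.

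Each aminoacyl-tRNA synthetase joins one amino acid to its matching transfer RNA, the step that fixes the genetic code during translation. Cytosolic and mitochondrial translation use separate transfer RNAs, and for most amino acids separate nuclear genes encode the enzyme for each compartment. Glycyl- and lysyl-tRNA synthetase are made in both forms from Gars and Kars, and mitochondrial glutaminyl-tRNA is made indirectly by an amidotransferase. In the cytosol some synthetases sit in a multi-synthetase complex held together by 3 scaffold proteins. Several cytosolic synthetase genes are known targets of ATF4, the transcription factor induced when amino acids are scarce, and Wars is a known interferon gamma target.

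The libraries held 15698510 to 24633158 assigned reads. Ddx3y, Eif2s3y, Kdm5d and Uty, 4 genes of the Y chromosome, were at 0 counts in every Y-KO library and at group means of 59.8 to 155 CPM in Y-Scr (CPM, reads of a gene per 1000000 reads of the library after TMM scaling). The leukocyte genes Ptprc, Cd3e and Itgam were at 0 counts in all 6 libraries, and the 7 leukocyte markers together reached at most 1.5 CPM in Y-Scr and 1.19 CPM in Y-KO. The epithelial keratin genes Krt8 and Krt18 were abundant, while Epcam, Cdh1 and the urothelial gene Upk3a were at 0 counts, so the bladder origin rests on the labels. Differences between the groups were widespread. Of 12907 genes that passed the low-count filter, 43.6% had an adjusted p under 0.05 in edgeR's quasi-likelihood test with Benjamini-Hochberg adjustment, which is what "called" means below. Higher genes in Y-KO made up 20.7% of those tested and lower genes 23.0%. All Y-KO libraries lay above all Y-Scr libraries for 25.4% of the genes tested and below them for 27.5%.

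Promoter sequences are shown first because ATF4 binds a defined element and the synthetase genes are among its classical targets. RefSeq promoters (GRCm38.p6, 250 bases before to 50 after the start site) were found for 27 of the 37 members. The cytosolic genes without one were Cars, Hars, Lars, Nars, Rars, Vars and Wars, and their promoters were not searched for any motif. The core of the C/EBP-ATF response element, TGATGNAA, was searched on both strands. It was present in 5 of the 27 promoters (18.5%), those of Gars, Aars, Tars, Iars and Yars, and in 4.51% of 27025 gene promoters of the same length. Those 27025 include genes that did not pass the low-count filter and were not matched for GC content, and enrichment was not tested. The 30-base windows around 5 of the matches are printed 5′ to 3′ along the gene's strand, with the motif or its reverse complement in capitals. Aars holds another match upstream, at -112 to -105 from the start site (window chr8:111033719-111033748), which is not printed.
Gars (chr6:55037960-55037989, plus strand, before the start site): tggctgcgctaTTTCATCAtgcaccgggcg
Aars (chr8:111033840-111033869, plus strand, across the start site): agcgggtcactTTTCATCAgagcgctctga
Tars (chr15:11399655-11399684, minus strand, across the start site): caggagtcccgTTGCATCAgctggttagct
Iars (chr13:49682126-49682155, plus strand, across the start site): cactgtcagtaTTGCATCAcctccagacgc
Yars (chr4:129189895-129189924, plus strand, across the start site): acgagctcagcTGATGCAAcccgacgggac
All 5 of these are cytosolic enzymes. Aars was the only one of the 5 that was called, lower in Y-KO, and the other 4 were not called. The deposited Aars interval starts at 111033144, so the printed window and the upstream match both lie inside the annotated gene.

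The core of the site bound by NRF1, a regulator of nuclear genes for mitochondrial proteins, has the letters GCGCATGC. It was present in 3 of the 27 promoters (11.1%), against 3.05% of all promoters of that length, and all 3 belong to mitochondrial enzymes. The same unmatched promoters serve as background here, and enrichment was not tested. Vars2 holds it at 2 places, and the matches are shown in the same way.
Vars2, upstream match (chr17:35667620-35667649, minus strand): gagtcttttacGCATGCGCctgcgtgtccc
Vars2, downstream match (chr17:35667594-35667623, minus strand): tccccgcccacGCATGCGCgcgcacctcgc
Rars2 (chr4:34614895-34614924, plus strand): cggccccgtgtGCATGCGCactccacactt
Wars2 (chr3:99141015-99141044, plus strand): ccagaggacagGCGCATGCgtagtaagcac
The 3 genes did not share a direction: Vars2 was called higher, Rars2 lower, and Wars2 was not called. The core of the interferon-stimulated response element was found in the Qars promoter alone among the 27, against 3.99% of all promoters. The promoter of Wars, the interferon gamma target, was not among the 27 and was not searched. The cAMP response element TGACGTCA was in none of the 27, and in 2.03% of all promoters.

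Cytosolic synthetase genes were expressed far above the mitochondrial ones. As CPM per kilobase of the deposited gene length (RPKM), the Y-Scr median was 50.6 for the 20 cytosolic genes and 4.21 for the 17 mitochondrial genes. The highest member was Nars, which charges asparagine, at 225 ± 5.3 RPKM in Y-Scr and 189 ± 2.0 in Y-KO (SD, n = 3). The lowest was Aars2, the mitochondrial alanine enzyme, at 2.31 ± 0.097 RPKM in Y-Scr and 3.13 ± 0.20 in Y-KO. Lars2, the mitochondrial leucine enzyme, stood apart from the other mitochondrial genes at 39.8 ± 3.7 RPKM in Y-Scr, and 16 cytosolic genes lay above it. Every cytosolic gene lay above the mitochondrial gene of the next rank, Tars2, at 15.1 ± 0.13 RPKM. Both extremes depend on the length used. With the length of the principal transcript in place of the deposited length, Gars (234) was highest, above Nars (215). Mars2 (2.84) was then lowest, below Aars2 (3.29). Tars2 also moved above Farsa, and Lars2 moved from rank 17 to rank 6. Neighbours in the order were often not separable: the Y-Scr libraries overlapped for 20 of the 36 adjacent pairs.

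**Figure D1:**
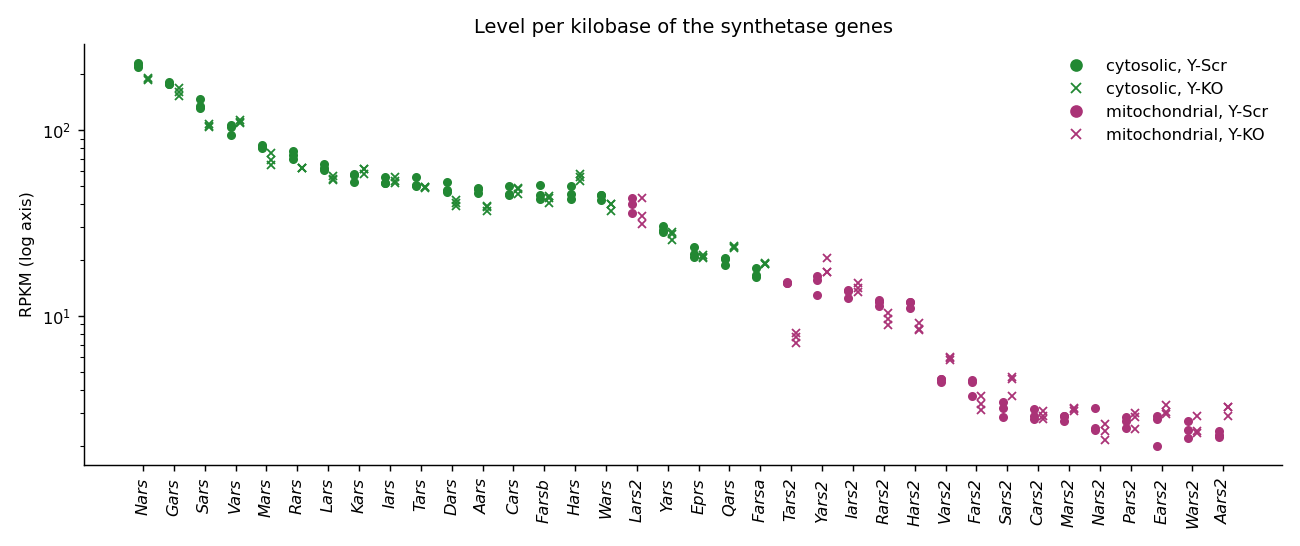
RPKM (log axis) of 36 synthetase genes in each library, ordered by the Y-Scr mean; circles are Y-Scr libraries, crosses are Y-KO libraries, and colour marks the compartment. Cytosolic genes fill the upper ranks, Lars2 is the mitochondrial gene among them, and the crosses of Tars2 lie well below its circles.

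All 37 members passed the low-count filter, and 18 were called, 6 higher and 12 lower in Y-KO. That is 48.6% of the members, near the 43.6% of all genes tested. Among the 20 cytosolic genes 2 were higher and 8 lower, with 10 not called. The lower genes are 40.0% of the set, beside 23.0% of all genes tested. Among the 17 mitochondrial genes 4 were higher and 4 lower, with 9 not called, or 23.5% in each direction. The median log2 fold change was -0.11 over the cytosolic genes and 0.06 over the mitochondrial genes, against -0.01 over all genes tested. No test of the lists themselves was made. In these bulk libraries, fewer cells expressing a gene and less of its RNA per cell cannot be told apart.

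**Figure D2:**
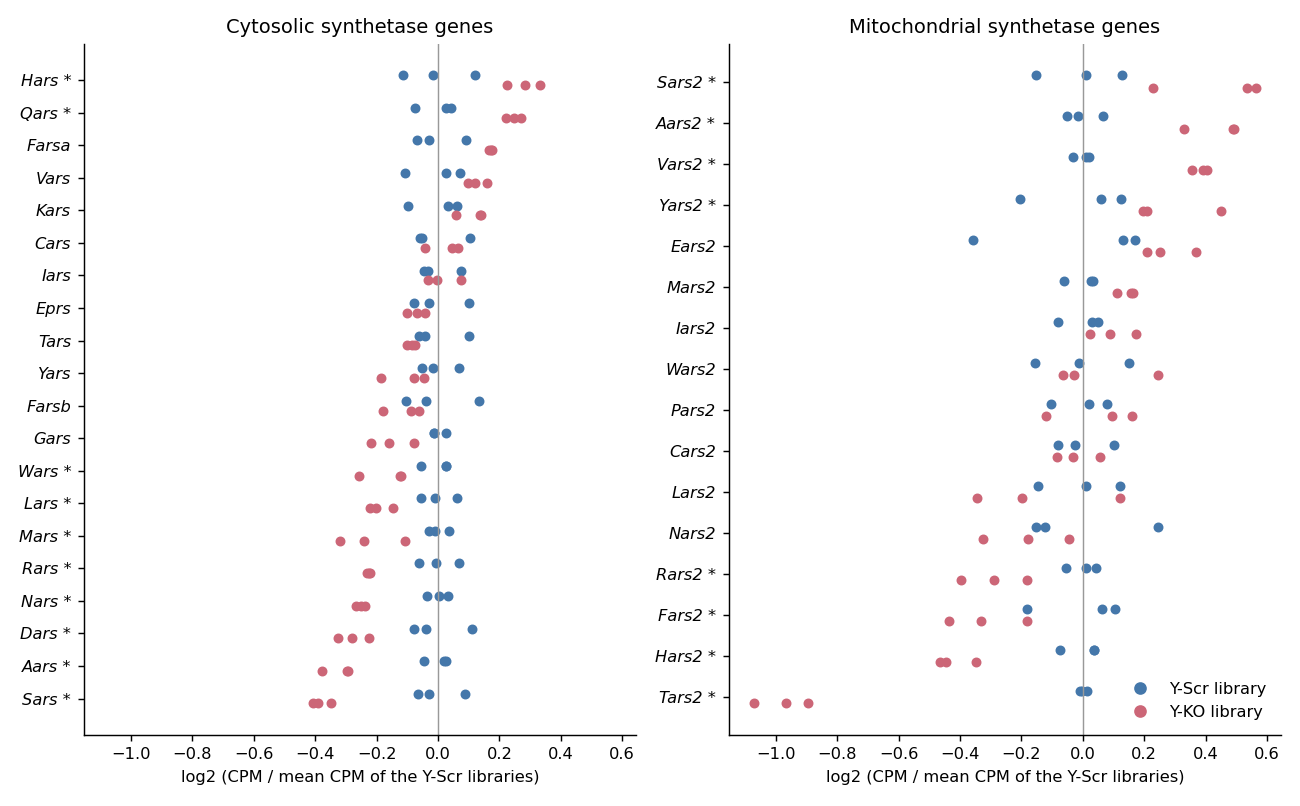
Log2 of each library's CPM over the Y-Scr mean for 20 cytosolic (left) and 16 mitochondrial (right) synthetase genes, ordered by fold change; each point is 1 library and asterisks mark called genes. The cytosolic genes shift by less than 0.5 in either direction, and Tars2 is the member farthest from 0.

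Sars, which charges serine and lies at chr3:108424865-108445209, fell by more than any other cytosolic member. It stood at 677, 694 and 753 CPM in the Y-Scr libraries and at 556, 534 and 541 CPM in the Y-KO libraries. The groups did not overlap, and the log2 fold change was -0.38 ± 0.06 (SE, edgeR adjusted p = 6.06e-05). Aars, the alanine enzyme at chr8:111033144-111057664, was at 451, 428 and 448 CPM in Y-Scr and at 360, 361 and 340 CPM in Y-KO. All Y-KO values again lay below all Y-Scr values, with a log2 fold change of -0.32 ± 0.06 (edgeR adjusted p = 0.000257). With trends on gene length and GC content removed, the Aars value grew to -0.64, beyond the -0.48 of Sars in that fit.

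Dars, the aspartate enzyme, was at 208, 231 and 202 CPM in Y-Scr and 176, 170 and 183 CPM in Y-KO, a log2 fold change of -0.27 ± 0.07 (edgeR adjusted p = 0.00205). Nars was at 604, 576 and 592 CPM in Y-Scr and 491, 501 and 497 CPM in Y-KO, a log2 fold change of -0.25 ± 0.06 (edgeR adjusted p = 0.00168). Rars, the arginine enzyme, was at 248, 236 and 227 CPM in Y-Scr and 203, 203 and 202 CPM in Y-KO, a log2 fold change of -0.23 ± 0.06 (edgeR adjusted p = 0.005). In all 3 genes the groups were separate, and the coefficient of variation among the Y-KO libraries of Rars was 0.32%. Mars, the methionine enzyme, was at 277, 286 and 273 CPM in Y-Scr and 259, 223 and 236 CPM in Y-KO, a log2 fold change of -0.22 ± 0.07 (edgeR adjusted p = 0.01). Lars, the leucine enzyme, was at 242, 234 and 254 CPM in Y-Scr and 212, 220 and 209 CPM in Y-KO, a log2 fold change of -0.19 ± 0.06 (edgeR adjusted p = 0.0163). Wars, the tryptophan enzyme, was at 154, 145 and 154 CPM in Y-Scr and 139, 126 and 138 CPM in Y-KO, a log2 fold change of -0.17 ± 0.06 (edgeR adjusted p = 0.0402). These 3 genes also had no overlap between groups. The call for Wars was lost under 12 of 17 alternative settings. With length and GC trends removed, Dars (-0.09), Nars (-0.08), Rars (-0.08) and Lars (-0.10) were no longer called. That fit still called 8 cytosolic genes lower, with Cars, Eprs, Vars and Yars added.

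Hars and Qars were the 2 cytosolic genes that rose. Hars, the histidine enzyme, was at 84.3, 90.2 and 99.1 CPM in Y-Scr and 111, 106 and 115 CPM in Y-KO. Its log2 fold change was 0.28 ± 0.07 (edgeR adjusted p = 0.00347), and 0.44 with length and GC trends removed. Qars, the glutamine enzyme, was at 124, 135 and 133 CPM in Y-Scr and 157, 152 and 155 CPM in Y-KO. Its log2 fold change was 0.25 ± 0.06 (edgeR adjusted p = 0.00301), and 0.10 with no call once those trends were removed. Neither gene had overlapping groups.

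The 10 cytosolic genes that were not called ranged from -0.15 to 0.17 on the log2 scale. Gars, at 552, 552 and 567 CPM in Y-Scr and 499, 479 and 527 CPM in Y-KO, lay just outside the threshold (log2 fold change -0.15 ± 0.06, edgeR adjusted p = 0.0507) although its groups did not overlap. Farsa, the catalytic alpha subunit of the phenylalanine enzyme, was at 73.5, 75.6 and 82.2 CPM in Y-Scr and 86.9, 86.5 and 87.0 CPM in Y-KO (log2 fold change 0.17 ± 0.07, edgeR adjusted p = 0.0549). Its partner subunit gene Farsb was at 118, 112 and 132 CPM in Y-Scr and 116, 106 and 113 CPM in Y-KO, which overlap (log2 fold change -0.11 ± 0.07). Tars, Vars, Gars and Farsa were the 4 uncalled cytosolic genes without overlap, Tars and Gars with Y-KO below Y-Scr. The remaining genes, Yars (-0.10), Eprs (-0.07), Iars (0.01), Cars (0.02) and Kars (0.11), had overlapping groups. Eprs, which joins the glutamate and proline enzymes in 1 protein, was called lower at -0.31 with length and GC trends removed, and its deposited length of 18102 bases is the longest among the members.

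Of the 8 synthetase genes whose products belong to the multi-synthetase complex, 4 fell (Dars, Lars, Mars and Rars), Qars rose, and Eprs, Iars and Kars were not called. Of the 12 cytosolic genes outside the complex 4 fell, Hars rose and 7 were not called. The medians were -0.13 inside and -0.11 outside, and the difference was not tested. These counts, and those of the scaffold genes below, are to be read beside 23.0% lower and 20.7% higher among all genes tested. With length and GC trends removed, Dars, Lars, Rars and Qars in the complex were not called, and Eprs was called lower. Mars kept its call in that fit but lost it in 3 of the 17 alternatives. Outside the complex Nars was not called in that fit, and Cars, Vars and Yars were called lower. Of the 3 scaffold genes 2 fell. Eef1e1, also known as AIMP3, had a log2 fold change of -0.40 ± 0.07 (edgeR adjusted p = 0.000128). Aimp1 had -0.30 ± 0.07 (edgeR adjusted p = 0.00202). Aimp2 was not called (-0.17 ± 0.08, edgeR adjusted p = 0.0881).

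Tars2, the mitochondrial threonine enzyme at chr3:95739976-95760206, changed more than any other synthetase gene. It stood at 105, 106 and 104 CPM in the Y-Scr libraries and at 56.4, 49.9 and 53.6 CPM in the Y-KO libraries. The Y-Scr values varied by 0.83% (coefficient of variation), and every Y-KO value was far below them. The log2 fold change was -0.97 ± 0.07 (edgeR adjusted p = 1.98e-09), and the call held in all 17 alternatives.

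The genes beside Tars2 on chromosome 3 were lower too. Of its 20 nearest tested neighbours, 10 on each side, 14 were lower and 1 higher, and their median log2 fold change was -0.46. Among all genes tested 23.0% were lower and 20.7% higher. Examples, chosen after their values were seen, are Golph3l (-1.21), Ensa (-1.11), Mcl1 (-1.01), which encodes an anti-apoptotic protein, and Vps45 (-0.97). In blocks of 20 genes along the chromosome, the block around Tars2 from 95314791 to 96161129 had a median of -0.43 with 13 of the other 19 genes lower. The following block, from 96162004 to 96708562, had a median of -0.56 with 12 of 20 lower. The blocks on either side of this pair had medians of -0.04 and 0.13. The remaining blocks examined had medians from -0.24 to 0.20. The lowest of these, from 90385239 to 92485895, had 10 of 20 genes lower and 2 higher. Around the other 36 members the median of the neighbouring genes lay between -0.29 and 0.19. Copy number was not measured, and its part in the lower Tars2 value was not tested.

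**Figure D3:**
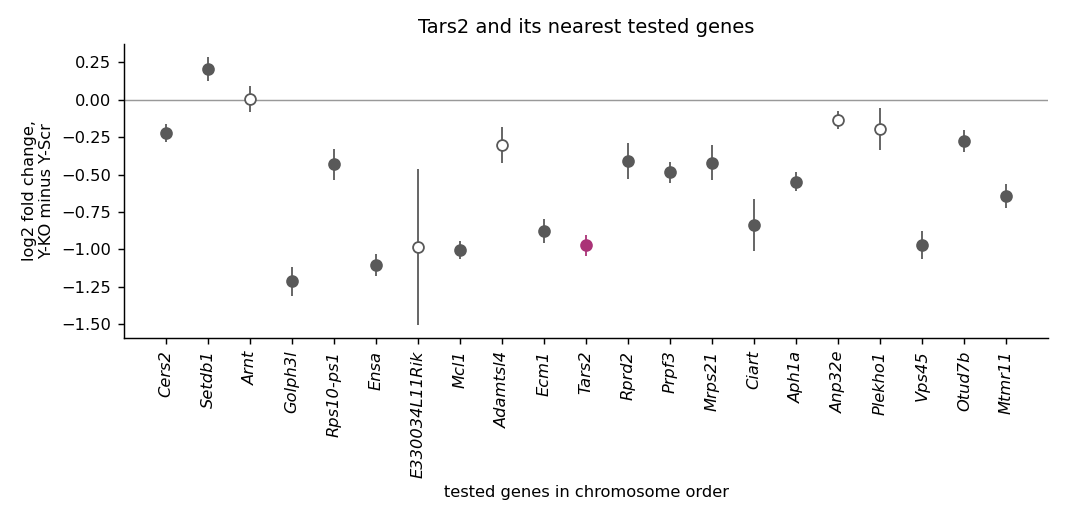
Log2 fold change (Y-KO minus Y-Scr, bars give the standard error) of Tars2, coloured, and the 10 nearest tested genes on each side in chromosome order; open points were not called. Of the 20 neighbours 18 lie below 0.

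Hars2, the mitochondrial histidine enzyme at chr18:36783008-36792562, was at 47.3, 51.1 and 51.1 CPM in Y-Scr and 36.1, 36.6 and 39.2 CPM in Y-KO. The groups were separate, with a log2 fold change of -0.42 ± 0.08 (edgeR adjusted p = 0.000447). Fars2, for phenylalanine, was at 26.0, 25.2 and 21.3 CPM in Y-Scr and 21.3, 17.9 and 19.2 CPM in Y-KO, and its groups overlapped narrowly (log2 fold change -0.31 ± 0.11, edgeR adjusted p = 0.0297). Rars2, for arginine, was at 32.8, 33.6 and 31.3 CPM in Y-Scr and 24.7, 26.6 and 28.7 CPM in Y-KO (log2 fold change -0.29 ± 0.09, edgeR adjusted p = 0.0175), without overlap. Fars2 and Rars2 each lost the call in 6 of 17 alternatives.

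The 4 mitochondrial genes that rose did so without overlap between groups. Sars2, for serine, was at 11.5, 9.44 and 10.6 CPM in Y-Scr and 15.2, 15.5 and 12.3 CPM in Y-KO (log2 fold change 0.45 ± 0.14, edgeR adjusted p = 0.0115). Aars2, for alanine, was at 11.5, 10.9 and 10.6 CPM in Y-Scr and 15.5, 15.4 and 13.8 CPM in Y-KO (log2 fold change 0.44 ± 0.12, edgeR adjusted p = 0.00696). Both are among the least abundant members, and the standard errors are larger than those of any cytosolic gene. Vars2, for valine, was at 24.9, 25.0 and 24.1 CPM in Y-Scr and 32.4, 32.7 and 31.6 CPM in Y-KO (log2 fold change 0.38 ± 0.09, edgeR adjusted p = 0.00167). Yars2, for tyrosine, was at 41.0, 49.2 and 51.5 CPM in Y-Scr and 64.6, 54.6 and 54.1 CPM in Y-KO (log2 fold change 0.29 ± 0.10, edgeR adjusted p = 0.0207). Sars2 (0.31), Aars2 (0.21) and Vars2 (0.14) were not called once length and GC trends were removed, which left Yars2 as the 1 mitochondrial gene called higher.

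The 9 mitochondrial genes that were not called ran from -0.17 for Nars2 to 0.27 for Ears2. Lars2 was the most variable of the abundant members. Its Y-Scr libraries were at 445, 399 and 481 CPM and its Y-KO libraries at 347, 481 and 385 CPM, so Y-KO replicate 2 stood as high as the highest Y-Scr library. The log2 fold change was -0.13 ± 0.12 (edgeR adjusted p = 0.429), and without Y-KO replicate 2 it was -0.27 with a call (edgeR adjusted p = 0.0186). The mitochondrial 12S rRNA gene mt-Rnr1, named after its values were seen, was likewise highest in Y-Scr replicate 3 (246 CPM) and Y-KO replicate 2 (230 CPM) of their groups, and its part in the Lars2 values was not tested. Ears2, for glutamate, was at 14.4, 10.3 and 14.8 CPM in Y-Scr and 17.0, 15.7 and 15.2 CPM in Y-KO, and was not called (edgeR adjusted p = 0.116). Mars2 (0.14) was also separate between groups without a call. Nars2, Cars2 (-0.02), Pars2 (0.05), Wars2 (0.06) and Iars2 (0.10) overlapped.

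The cytosolic and mitochondrial genes for the same amino acid did not move as a unit. For alanine and serine the cytosolic gene fell and the mitochondrial gene rose. The ratio of Aars to Aars2 CPM was 39.2, 39.3 and 42.2 in Y-Scr and 23.3, 23.4 and 24.6 in Y-KO. The ratio of Sars to Sars2 was 59.1, 73.6 and 71.2 in Y-Scr and 36.6, 34.5 and 44.0 in Y-KO. Both ratios were lower in every Y-KO library than in any Y-Scr library. Histidine showed the opposite arrangement, with Hars higher and Hars2 lower, and the ratio of Hars to Hars2 went from 1.78, 1.76 and 1.94 in Y-Scr to 3.08, 2.91 and 2.93 in Y-KO. The histidine pair kept both calls under all 17 alternatives, whereas Aars2 and Sars2 lost theirs with length and GC trends removed. With 3 libraries against 3, a two-sided exact permutation test of a ratio cannot go below p = 0.10. No ratio could pass 0.05 in such a test, and the ratios were not tested.

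For threonine Tars2 fell and Tars was not called. Tars was at 295, 300 and 331 CPM in Y-Scr and 293, 291 and 288 CPM in Y-KO (log2 fold change -0.09 ± 0.06, edgeR adjusted p = 0.285). The ratio of Tars to Tars2 was 2.82, 2.83 and 3.18 in Y-Scr and 5.19, 5.85 and 5.37 in Y-KO. Arginine was the 1 amino acid for which both genes were called in the same direction, Rars and Rars2 lower. For asparagine, leucine, methionine and tryptophan only the cytosolic gene was called, in each case lower. For phenylalanine, tyrosine and valine only the mitochondrial gene was called. Vars, at 581, 530 and 600 CPM in Y-Scr and 638, 611 and 620 CPM in Y-KO, was separate between groups but not called (0.13 ± 0.06, edgeR adjusted p = 0.112). The direction of Vars depended on the fit. With length and GC trends removed it was called lower (-0.16, edgeR adjusted p = 0.0142). Without Y-Scr replicate 3 it was called higher (0.16, edgeR adjusted p = 0.0382). Yars was at 172, 167 and 182 CPM in Y-Scr and 168, 164 and 153 CPM in Y-KO, which overlap. Nars2 was at 17.0, 22.3 and 17.3 CPM in Y-Scr and 16.7, 15.1 and 18.3 CPM in Y-KO, and Wars2 at 14.5, 16.2 and 13.1 CPM and 14.0, 17.3 and 14.3 CPM. Both overlapped between groups, while Mars2, at 30.8, 32.8 and 32.7 CPM in Y-Scr and 35.8, 34.7 and 35.9 CPM in Y-KO, did not. Neither gene was called for cysteine, glutamate, isoleucine and proline.

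**Figure D4:**
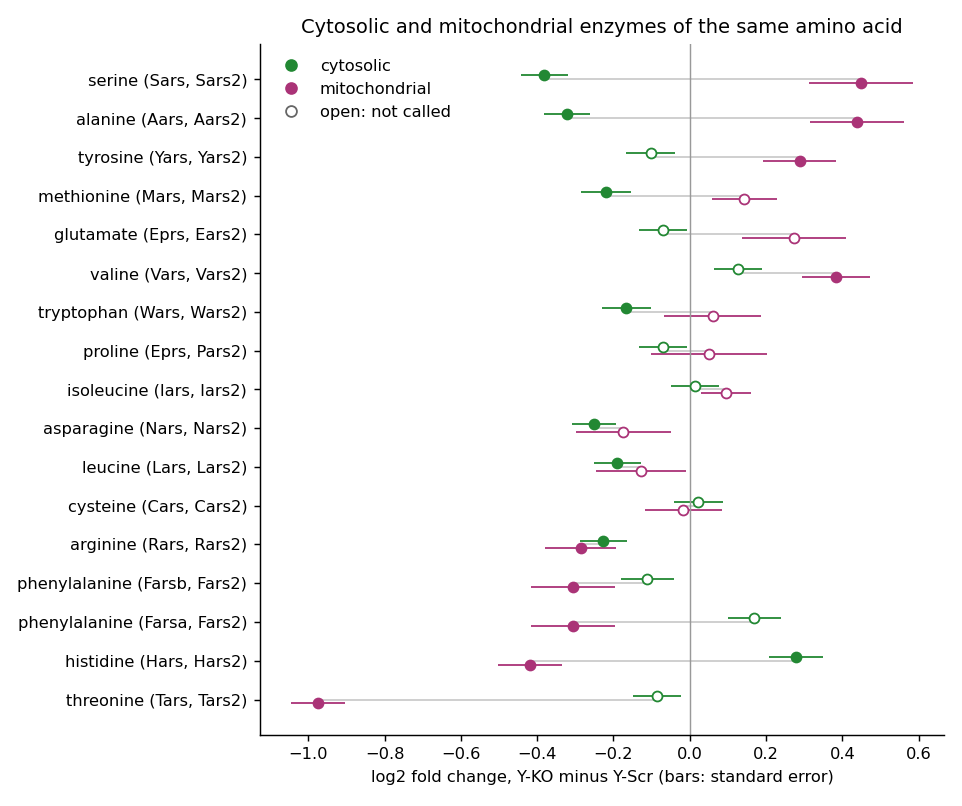
Log2 fold change (Y-KO minus Y-Scr, bars give the standard error) of the cytosolic and the mitochondrial gene for the amino acids shown; Eprs appears with both Ears2 and Pars2, and the phenylalanine subunits each with Fars2. Serine and alanine have the mitochondrial gene on the right of 0 and the cytosolic gene on the left, and histidine the reverse.

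Summed over each set, the cytosolic genes held 6130 ± 146 CPM in Y-Scr and 5646 ± 71 CPM in Y-KO (SD, n = 3). The mitochondrial genes held 1002 ± 36 CPM in Y-Scr and 930 ± 55 CPM in Y-KO. The ratio of the sums was 6.12 ± 0.07 in Y-Scr and 6.09 ± 0.42 in Y-KO, and the groups overlapped. Lars2 alone held 442 of the 1002 CPM of the mitochondrial sum in Y-Scr. Without it the ratio was 10.9 ± 0.42 in Y-Scr and 10.7 ± 0.17 in Y-KO.

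Genes that act beside the synthetases were counted in lists, to be read beside 23.0% lower and 20.7% higher among all genes tested. A list of 5 genes held partners of mitochondrial aminoacylation together with Tarsl2. In it Gatb fell (-0.57 ± 0.12, edgeR adjusted p = 0.000739). Gatb encodes a subunit of the amidotransferase that makes mitochondrial glutaminyl-tRNA, and the genes for the other subunits, Qrsl1 (-0.16) and Gatc (0.10), were not called. Tarsl2, which encodes a cytosolic threonyl-tRNA synthetase-like enzyme outside the name rule, rose (0.45 ± 0.11, edgeR adjusted p = 0.00286). The third threonine gene thus moved opposite to Tars2, from 18.2 ± 2.6 CPM in Y-Scr to 24.7 ± 0.96 CPM in Y-KO. Mtfmt, which formylates the mitochondrial initiator methionyl-tRNA, was not called (0.18).

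Of 6 tested genes for editing or hydrolysis of mischarged and peptidyl-tRNA, 3 fell, among them Prorsd1 (-0.42) and Dtd2 (-0.28), and none rose. Of 9 elongation factor genes, which deliver charged tRNA to the ribosome or move it along, 3 rose (33.3%) and 2 fell (22.2%). The mitochondrial factors Tufm (0.36) and Gfm1 (0.27) and the cytosolic translocase Eef2 (0.27) rose, while the cytosolic Eef1a1 (-0.33) and Eef1b2 (-0.55) fell. Of 13 tested genes for tRNA maturation and export, 3 fell and 3 rose, 23.1% in each direction and near the shares of all genes tested. Trmt61a, a tRNA methyltransferase subunit, fell (-0.76), as did Trnt1 (-0.34), which adds the CCA end that synthetases charge, and Trdmt1 (-0.41), while Pus7 (0.28), Elac2 (0.23) and Ikbkap (0.20) rose.

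Another list held genes for stress kinases, a kinase activator and transcription factors, among them Atf4. Of its 10 tested genes 6 fell and 2 rose, with a median of -0.51. Among its kinase genes only Eif2ak4 encodes the kinase that senses uncharged tRNA, so the list is wider than the response to scarce amino acids. Atf4 went from 1343 ± 43 CPM in Y-Scr to 998 ± 26 CPM in Y-KO, a log2 fold change of -0.43 ± 0.06 (edgeR adjusted p = 1e-05). Ddit3 (-1.21), Atf5 (-0.69), Cebpg (-0.59), Cebpb (-0.69) and Eif2ak2 (-0.79) also fell. Gcn1l1 (0.63), whose product activates the kinase that senses uncharged tRNA, and the kinase gene Eif2ak1 (0.28) rose, and the gene for that sensing kinase, Eif2ak4, was not called (0.24). Of 24 tested ATF4 targets outside the synthetases 13 fell (54.2%) and 2 rose (8.3%), with a median of -0.23. Ppp1r15a (-1.51), Gdf15 (-1.21), Cth (-0.96) and Psph (-0.74) had the smallest adjusted p-values, and the amino acid transporter genes Slc7a5 (0.21) and Slc38a2 (0.23) were the 2 that rose. The cytosolic synthetases shifted less, with no log2 fold change beyond -0.38. Messenger RNA of Atf4 does not report its protein, which is controlled by translation.

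Beside Wars, all 5 tested genes of the interferon gamma response fell, with values further from 0. They include Irf1 (-1.40), Gbp2 (-2.18), Tap1 (-1.16) and Psmb9 (-2.24), against -0.17 for Wars. Psmb9 had few reads, at means of 1.28 CPM in Y-Scr and 0.26 CPM in Y-KO, and its standard error was 0.53.

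**Figure D5:**
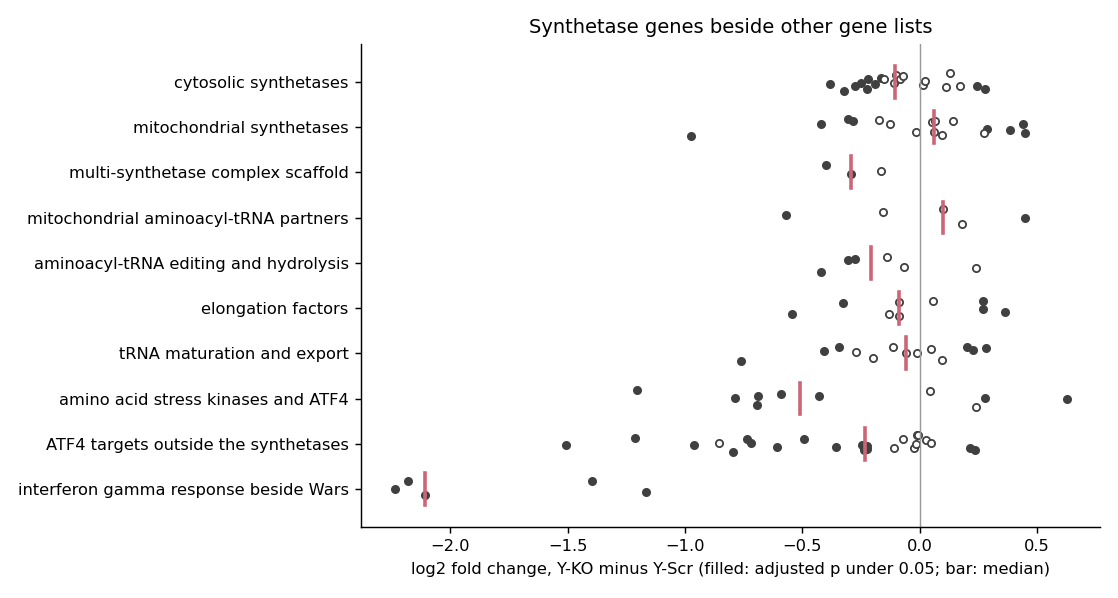
Log2 fold change (Y-KO minus Y-Scr) of every tested gene in the synthetase sets and in 8 other lists; filled points were called, open points were not, vertical position within a list has no meaning, and the bar is the list's median. The medians are -0.11 for cytosolic and 0.06 for mitochondrial synthetases, and -0.51 for the stress kinases and ATF4.

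Some members share exon sequence with another gene, and the sources used here give no strand setting for the counting, although the library kit keeps strand. Hars and Hars2 lie head to head on opposite strands of chromosome 18 and share up to 195 exon bases. Mars shares up to 68 exon bases with Ddit3 on the opposite strand. Iars2 shares 2034 with Rab3gap2, Ears2 89 with Ubfd1, and Cars2 215 with Naxd. Aars contains 1326 exon bases of Exosc6 on its own strand, and Exosc6 was listed at 0 in all libraries. The part of these overlaps in the values was not tested. When all tested genes were split into 5 equal groups by length, the median log2 fold change was -0.14 for the shortest genes and 0.14 for the longest. In 5 groups by GC content it was -0.12 for the group poorest in GC and 0.09 for the richest. That richest group held 6 of the 17 mitochondrial and 3 of the 20 cytosolic synthetase genes.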

How the data were processed

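The 6 libraries were stranded poly-A libraries of total RNA. The authors deposited 1 table of raw counts, in whole numbers, for each gene. The submitters' processing notes name Trimmomatic 0.39, STAR 2.5.2b, featureCounts 1.5.3, DESeq2 and the builds GRCm39 and mm39, with no role given. The deposited coordinates are those of GRCm38: 98.3% of the genes shared with GENCODE M21 have identical positions, so GRCm38 is used throughout. Counts were fitted with edgeR 4.0.16 (R 4.3.3; TMM scaling, filterByExpr, robust quasi-likelihood test, group as the only term) over all genes tested, with Benjamini-Hochberg adjustment and a threshold of 0.05. CPM use TMM-scaled library sizes, and RPKM divide them by the deposited gene length. Alternatives used DESeq2 1.42.0, limma-voom 3.58.1, other scalings and filters, a replicate block, each library left out, and, added after the data were seen, removal of each library's spline trend on gene length and GC content. Every member is counted; values per library are given for called members, their partners and the extremes in level, and up to 4 genes of each other list by adjusted p. The members and lists were chosen with earlier results of these data known. A few items are not reported here by name, and 1 member is left out of the figures.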

Additional observations from a re-analysis of the deposited data

How the results depend on the processing

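Hars, Sars, Aars, Tars2 and Hars2 kept their calls under all 17 alternatives, 5 of the 18 called members, and the other 13 lost theirs under at least 1. Removing the length trend moved the mitochondrial median to -0.038, and adding the replicate block to it gave -0.034, with 1 cytosolic gene higher and 4 lower. Removing length and GC trends left 1 cytosolic and 1 mitochondrial gene higher and a mitochondrial median of 0.033. It called 8 cytosolic genes lower, the same number with a changed membership, and the cytosolic median was -0.096. It called 5 mitochondrial genes lower. It kept 9 of the 18 calls and added 6, all lower, namely Cars, Cars2, Eprs, Lars2, Vars and Yars. Fold changes near 0 changed sign when the length trend was removed, without and with the replicate block: Iars (-0.030 and -0.031), Cars (-0.068 and -0.066), Wars2 (-0.011 and -0.013), Iars2 (-0.050 and -0.047) and Mars2 (-0.038 and -0.034). With length and GC trends removed Farsb became 0.070, Cars -0.15, Vars -0.16 and Iars2 -0.031.

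Leaving out 1 library at a time gave 2 to 4 cytosolic genes higher (4 without Y-Scr replicate 3) and 5 to 8 lower (5 without Y-KO replicate 3). It gave 2 to 5 mitochondrial genes higher (2 without Y-KO replicate 1) and 2 to 4 lower (2 without Y-Scr replicate 2), with a mitochondrial median from 0.010 to 0.12. Without Y-Scr replicate 3 the called mitochondrial genes that were higher numbered 5, Ears2 being added. Calls lost in this way were those of Mars, Lars and Wars among cytosolic genes, and of Fars2, Rars2, Yars2 and Sars2 among mitochondrial genes. Across these fits the fold changes ranged from -0.017 to 0.060 for Iars, -0.055 to 0.042 for Cars2, -0.0061 to 0.13 for Pars2 and -0.041 to 0.15 for Wars2.

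Same-numbered libraries did not vary together (correlations of their deviations -0.06, -0.03 and -0.02), so the numbers pair nothing. The replicate block gave 2 cytosolic genes higher and 6 lower, and 4 mitochondrial genes higher and 4 lower. The median standard error was 0.10 for the mitochondrial and 0.06 for the cytosolic genes. Reads over the 6 libraries ran from 922 (Pars2) to 46116 (Lars2, standard error 0.12) for mitochondrial and from 8922 to 68699 for cytosolic genes, and the part of depth in the standard errors was not tested.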
